A study of Mus musculus with 56 samples.

Results

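The 9 genes described here encode proteins that coat or build the lipid droplet, and they were followed through the diurnal transcriptome of mouse visceral adipose tissue (VAT): the perilipins Plin1, Plin2, Plin3, Plin4 and Plin5, and Cidec, Fitm1, Fitm2 and Bscl2. They were taken by their Ensembl gene identifiers from a table of 25939 genes, and all 9 were present with a value in each of the 56 libraries. The mice were C57BL/6J females, 9 weeks old, kept in a 12-h light, 12-h dark cycle with chow. For 7 days food was given either only in the light phase (daytime-restricted feeding, DRF) or only in the dark phase (nighttime-restricted feeding, NRF, the control), and VAT was collected at zeitgeber times (ZT, hours after lights-on) 0, 4, 8, 12, 16, 20 and 24, from 4 mice per time and regimen with 1 library per mouse. Under NRF the fed phase therefore runs from ZT12 to ZT24, and under DRF from ZT0 to ZT12. Every mouse, the NRF controls included, was on restricted feeding, so no freely fed group enters the comparisons, and the labels do not name the fat depot.

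The lipid droplet is a store of triglyceride and sterol ester wrapped in a single layer of phospholipid, and its coat proteins regulate how far lipases reach the lipid inside. Perilipin 1 is the main coat protein of the adipocyte droplet and, once phosphorylated in fasting, opens the droplet to hormone-sensitive lipase and adipose triglyceride lipase. Perilipin 2 coats droplets in nearly all cells and is degraded when it is not bound to lipid, perilipin 3 moves from the cytosol to new droplets, perilipin 4 coats small nascent droplets of adipocytes, and perilipin 5 is known from oxidative tissues, where it tethers droplets to mitochondria. Cidec (Fsp27) joins droplets and lets lipid pass between them, which gives white adipocytes their large droplet. Fitm1 and Fitm2 are endoplasmic reticulum proteins needed for droplet budding, Fitm1 mainly in muscle, and Bscl2 encodes seipin, which holds the neck between the endoplasmic reticulum and a growing droplet.

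The libraries held 31.1 to 41.2 M reads on genes, as recovered from the table. Levels are given as CPM in the scale of the deposited values, that is reads per M of an effective library size, which ran from 31.8 to 47.3 M and was 0.934 to 1.36 times the reads of the library. Calls that changed when levels were set per M reads instead (total-read scaling, chosen after seeing the data) are given beside the results they touch. The tissue label was checked against adipocyte markers: all 9 of a list, Adipoq, Fabp4 and Lep among them, were found in every library, and their summed level ran from 32998 to 55849 CPM under NRF and from 19192 to 63162 CPM under DRF. A pair of DRF libraries stood apart, ZT8 replicate 1 with an adipocyte sum of 19192 CPM and ZT0 replicate 4 with 28241 CPM, against 37412 CPM or more in every other DRF library. Both also had high sums of uterine and oviduct epithelium markers, 678 and 5207 CPM, against at most 178 CPM in the other DRF libraries. DRF ZT8 replicate 1 had the highest effective size for its reads (43.1 M for 31.8 M), and on this scale each of the 9 coat genes was there at the lowest level of its group, and 7 of them, all but Plin2 and Fitm1, at the lowest level of any library. With total-read scaling 7 were lowest in their group, all but Plin2 and Fitm1, and 4 in any library, Plin1, Plin4, Fitm2 and Bscl2. In DRF ZT0 replicate 4, 7 of the 9, all but Plin3 and Fitm1, were at the lowest level of their group, and 6 with total-read scaling, Plin4 being the other exception. Many of the results that rest on these libraries are therefore given with and without them, and the part of other tissue in them was not tested. NRF ZT24 replicate 4 had a liver marker sum of 1603 CPM (5 of the 6 genes of that list were in the table), against at most 76.5 CPM under DRF and a median of 24.6 CPM under NRF. Without this library the NRF ZT24 mean was 767 CPM in place of 945 for Plin2 and 9.05 in place of 11.4 for Plin5. It was 0.233 in place of 0.399 for Fitm1 and 2043 in place of 1827 for Cidec. The part of liver RNA in the NRF ZT24 values was not tested. In bulk tissue, fewer cells of a type and less RNA per cell cannot be told apart.

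Per kilobase of exon, the coat genes lay between the 37.1 and 99.9 percentiles of all genes, 8 of the 9 at 77.1 or above. Cidec was the most abundant, at 1435 ± 466 CPM per kb (SD, n = 56 libraries). Plin1 followed with 356 ± 72.7 CPM per kb, Plin4 with 235 ± 80.7 and Plin2 with 189.6 ± 95.7. Cidec lay above Plin1, and Plin1 above Plin4, in 56 of 56 libraries. Plin4 and Plin2 were not separated beyond their spread, Plin4 being the higher in 32 of the 56. Seipin (Bscl2) at 57.0 ± 9.21 CPM per kb and Fitm2 at 55.3 ± 9.50 were likewise not separated, with Bscl2 the higher in 35 of 56. Plin3 stood at 15.9 ± 1.61 and Plin5 at 6.21 ± 1.79 CPM per kb. Fitm1 was last, at 0.253 ± 0.283 CPM per kb.

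**Figure D1:**
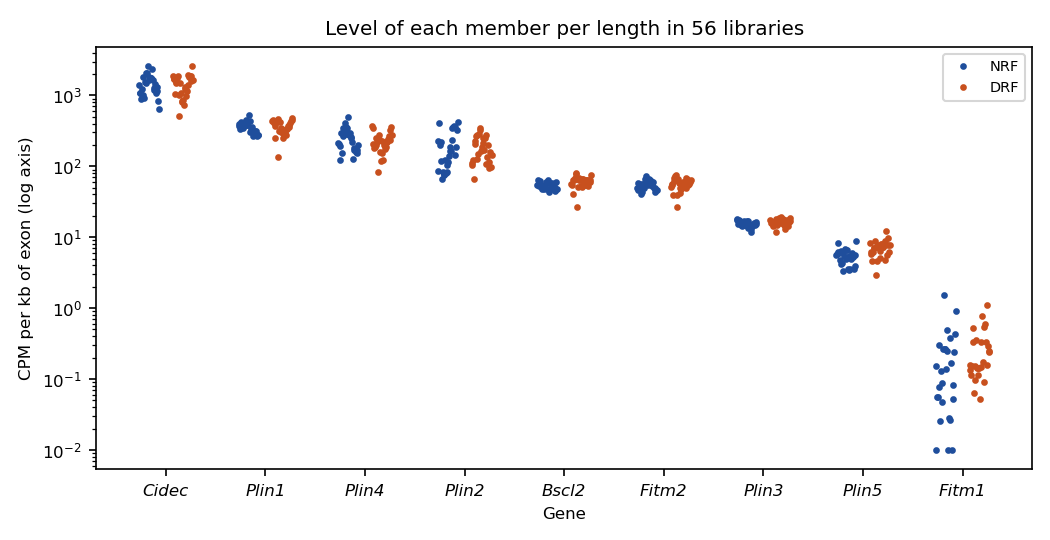
Level of each coat gene in CPM per kilobase of exon on a log axis, 1 point per library, NRF in blue and DRF in orange, with time running from left to right within each cloud and libraries with no Fitm1 read drawn at 0.01. The clouds of Plin4 and Plin2 and those of Bscl2 and Fitm2 overlap, while Cidec lies above and Fitm1 below all the others.

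In the mouse annotation (GRCm38) Plin4, Plin5 and Plin3 form a cluster on the minus strand of chromosome 17. Plin4 lies at chr17:56100591-56109803 and Plin5 at chr17:56111601-56117596, with 1797 bases between them, and Plin3 lies at chr17:56277476-56292873, the 3 genes together spanning 192 kb. Plin1 is at chr7:79720218-79732903, Plin2 at chr4:86648386-86670060, Cidec at chr6:113424634-113435760 and Fitm2 at chr2:163466379-163472629, all on the minus strand, and Fitm1 at chr14:55575617-55576954 and Bscl2 at chr19:8837467-8848683 on the plus strand. Values are counts over the exons of these genes. The library kit does not mark strand, and 398 exon bases of Bscl2 are shared with the opposite gene Gng3, whose median was 1.41 CPM. Plin4 shares 17 bases with Hdgfl2, Fitm2 shares 227 with 2310001K24Rik, and Fitm1 shares 109 of its exon bases with Gm15932 (median 0.0999 CPM), so reads there cannot be assigned to one gene.

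The sequences before the start sites of the 4 members with a rhythm under both regimens are given because 3 of them, Cidec, Plin1 and Plin4, moved together and the other, Plin2, moved against them. They are the RefSeq promoter windows of GRCm38.p6, written 5′ to 3′ on the gene's own strand from base 250 before the start site and ended where an annotated exon of the gene begins. Capitals mark a match, on either strand, to the C/EBP motif TTGCNNAA or to AGGTCA, the core of nuclear receptor sites.
Plin2 (chr4:86670061-86670309, minus strand): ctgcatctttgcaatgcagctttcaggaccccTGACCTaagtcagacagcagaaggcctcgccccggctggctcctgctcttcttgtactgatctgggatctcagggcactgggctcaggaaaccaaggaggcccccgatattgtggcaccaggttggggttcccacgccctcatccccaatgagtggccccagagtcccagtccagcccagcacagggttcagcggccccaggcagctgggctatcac
Cidec, upstream start (chr6:113435761-113436010, minus strand): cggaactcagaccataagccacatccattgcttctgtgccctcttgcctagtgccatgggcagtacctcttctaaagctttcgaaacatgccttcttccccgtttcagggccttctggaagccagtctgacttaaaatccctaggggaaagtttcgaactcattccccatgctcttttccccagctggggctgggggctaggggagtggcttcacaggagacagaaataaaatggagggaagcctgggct
Cidec, downstream start (chr6:113434765-113435014, minus strand): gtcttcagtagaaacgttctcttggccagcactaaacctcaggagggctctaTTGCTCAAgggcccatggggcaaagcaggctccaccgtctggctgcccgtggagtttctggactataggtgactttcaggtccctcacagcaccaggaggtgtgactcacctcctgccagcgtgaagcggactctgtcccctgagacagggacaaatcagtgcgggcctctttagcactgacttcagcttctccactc
Plin1 (chr7:79732904-79733026, minus strand): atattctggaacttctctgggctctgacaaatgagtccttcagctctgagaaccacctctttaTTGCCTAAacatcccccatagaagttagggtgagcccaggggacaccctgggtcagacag
Plin4 (chr17:56109804-56110032, minus strand): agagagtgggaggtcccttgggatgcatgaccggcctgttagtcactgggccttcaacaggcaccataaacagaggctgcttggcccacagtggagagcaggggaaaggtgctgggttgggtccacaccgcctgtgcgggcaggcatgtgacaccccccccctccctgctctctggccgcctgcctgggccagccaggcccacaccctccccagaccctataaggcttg

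The 250 bases before each start were searched in 13 promoter windows of the 9 members and in all 32851 windows of the table. TTGCNNAA was found in 2 member windows, at the downstream start of Cidec and at Plin1 (from base 187 and again from base 58 before its start, the second within an annotated first exon and not printed), and in 9.56% of all windows. AGGTCA was found in 3 member windows, of Plin2 (from base 218), Plin5 and Bscl2, and in 14% of all. The E-box CACGTG, in 6.02% of all windows, and the direct repeat AGGTCANAGGTCA, which holds AGGTCA within it and occurs in 0.0335%, were in none of the 13. No match says only that these letters are not in this window.

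The first question was which coat genes follow a 24-h rhythm under each feeding schedule, and how feeding in the light phase moves it. Plin1, Plin2, Plin4, Cidec and Fitm2 were rhythmic under NRF, and Plin1, Plin2, Plin4 and Cidec under DRF. Plin2 was high in the fed phase under both schedules, whereas the fitted peaks of Cidec, Plin1 and Plin4 fell late in the fast or around its end. Cidec was still high 4 h into the meal, at a mean of 3474 CPM at NRF ZT16 and 3094 CPM at DRF ZT4. The 4 genes with a rhythm under both regimens (4 of 9, against 9.64% of all genes) shifted by 8.19 to 11 h when the meals moved by 12 h. Plin3, Plin5, Bscl2 and Fitm1 did not pass the rhythm test under either regimen, with the 1 exception of Plin3 under NRF when scaled to total reads. The test combined JTK_CYCLE and Lomb-Scargle p-values by Fisher's method, with Benjamini-Hochberg adjustment over all genes: 5 of 9 members passed under NRF against 26.1% of all genes, and 4 of 9 under DRF against 15.3%. The median fitted amplitude on the log2(CPM + 1) scale was 0.21 over the members and 0.10 over all genes under NRF, and 0.16 and 0.088 under DRF. All genes here include low ones, whose amplitudes this scale keeps small: 15978 of the 25939 had a mean log2(CPM + 1) of at least 0.5. The part of abundance in the gap was not tested. The DRF rhythms were the weaker calls: leaving out 1 replicate number in all groups left 1 or 2 of the 4, with Cidec among them in all 4 cases, and without the ZT24 libraries Cidec was the 1 that passed. With single libraries left out, the DRF rhythm of Plin2 was lost in 12 of 56 fits (adjusted p up to 0.143, without DRF ZT12 replicate 1) and that of Plin4 in 2 (up to 0.0547, without the same library), while those of Cidec and Plin1 passed in all 56.

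**Figure D2:**
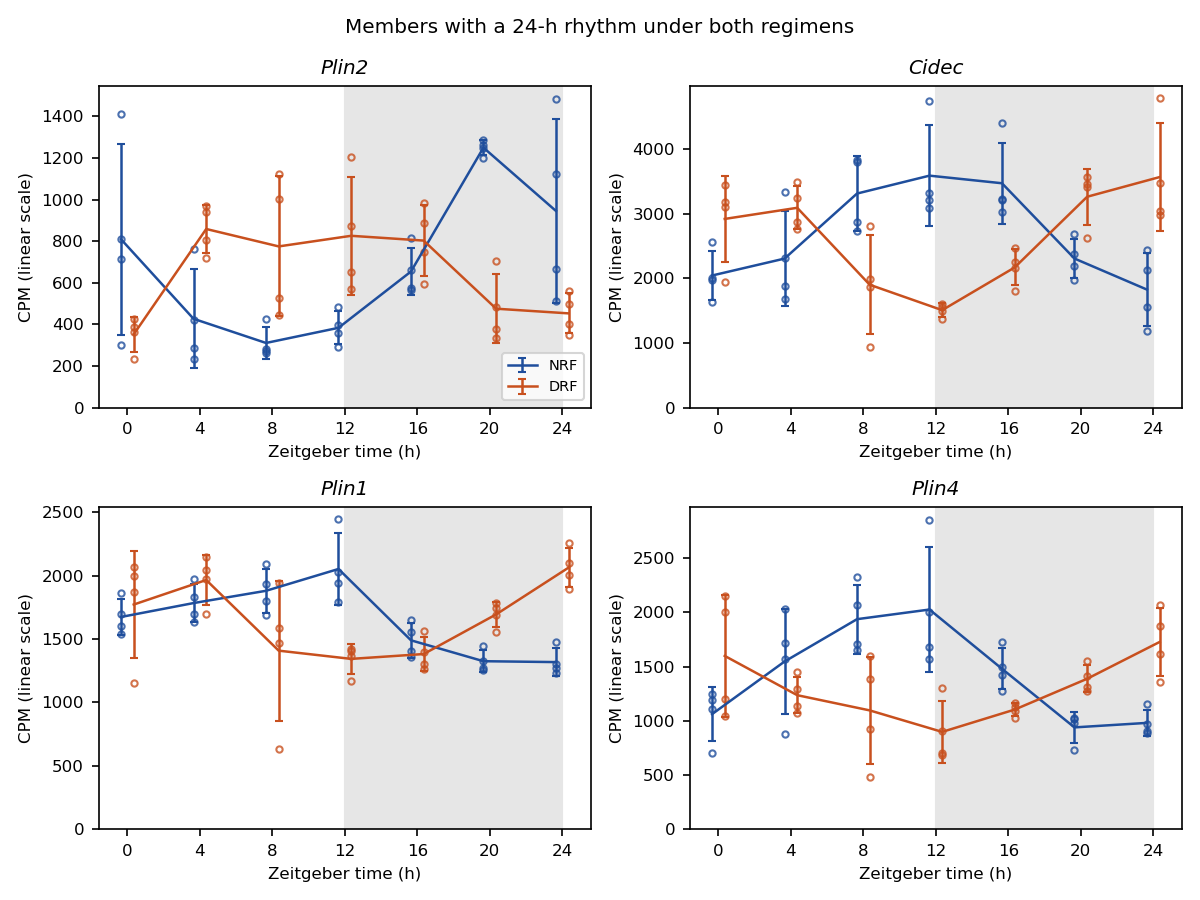
Level in CPM (linear axis) of Plin2, Cidec, Plin1 and Plin4 against zeitgeber time, 1 circle per mouse, lines through the group means with SD bars (n = 4), NRF in blue, DRF in orange, dark phase shaded. Plin2 peaks at ZT20 under NRF and is high from ZT4 to ZT16 under DRF, while Cidec, Plin1 and Plin4 have their highest mean at ZT12 under NRF and at ZT24 under DRF.

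Plin2, the ubiquitous coat protein, had the widest swing of the members under NRF, leaving aside Fitm1 with its few reads. Under DRF its fitted amplitude was close to that of Cidec (0.54 ± 0.13 against 0.56 ± 0.083 on the log2 scale). Under NRF its level at ZT20, in mid-feeding, was 1200.2, 1260.3, 1288 and 1250.0 CPM in the 4 mice, and at ZT8, in mid-fast, 264, 272, 427 and 280.3 CPM. The groups did not overlap, and the means of 1249.6 ± 36.5 and 311 ± 77.7 CPM (SD, n = 4) differed 4.02-fold. At lights-on, the end of feeding, which was sampled as ZT0 and as ZT24, the mice were far less uniform, and stood at 302, 811, 1412 and 712 CPM at ZT0 and at 511, 664, 1125 and 1481 CPM at ZT24, where the highest was replicate 4, the library with liver markers. The SD was 458 and 442 CPM at these times, against the 36.5 CPM of ZT20.

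Under DRF Plin2 was high through the light phase. It stood at 807, 719, 938 and 971 CPM at ZT4, already after 4 h of feeding, and at 387, 361, 428 and 233 CPM at ZT0, at the end of the fast. The groups at ZT0 and ZT4, picked as the lowest and highest DRF means, did not overlap. From ZT4 to ZT16 the means stayed between 775 and 859 CPM. The ZT8 mean was the 775 CPM, and 884 CPM without DRF ZT8 replicate 1. Across regimens at ZT20 the DRF mice were at 379, 482, 707 and 334 CPM, all below the NRF mice (log2 difference −1.45 ± 0.34 SE, adjusted p = 0.00203 by limma). At ZT8 the order was turned, with 447, 528, 1001 and 1123 CPM under DRF, all above NRF (log2 difference 1.24 ± 0.34, adjusted p = 0.00812). The fitted 24-h peak was at ZT20.3 ± 0.533 h (SE) under NRF and at ZT10.4 ± 1.03 h under DRF, and the fitted amplitude was 0.97 ± 0.14 and 0.54 ± 0.13 on the log2 scale. The amplitude difference of −0.44 ± 0.19 did not pass (adjusted p = 0.355, CircaCompare model), and 0 of 9 members did, against 1.44% of all genes. At an unadjusted p under 0.05 the count in that model was 1 of 9, Plin2. Macrophages also carry Plin2: a list of 7 macrophage markers summed to 677 to 1767 CPM under NRF and 598 to 1116 CPM under DRF, 4 of the 7 having a lower mean level under DRF, and their part in the Plin2 level was not tested.

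Cidec, the protein that fuses droplets, peaked in another part of the feeding cycle than Plin2. Its highest group mean under NRF was at ZT12, the end of the fast, with 4749, 3083, 3327 and 3207 CPM, and its lowest at ZT24, the end of feeding, with 2128, 2446, 1555 and 1180.0 CPM. These groups did not overlap. Under DRF the 4 mice at ZT12 stood at 1561, 1495, 1611 and 1368 CPM and those at ZT24 at 2978, 3472, 4787 and 3041 CPM, again without overlap and in the opposite order. The highest and lowest means were 3591 and 1827 CPM under NRF, and 3569 and 1509 CPM under DRF. The mice under DRF were therefore all below those under NRF at ZT12 (log2 difference −1.23 ± 0.25, adjusted p = 0.000399) and all above them at ZT24 (0.99 ± 0.25, adjusted p = 0.00626). The lowest NRF mouse at ZT24 was the library with liver markers, and without it the ZT24 difference was 0.80, adjusted p = 0.0528. The fitted peak moved from ZT12.2 ± 0.718 h to ZT23.3 ± 0.639 h, and the amplitudes were 0.50 ± 0.083 under NRF and 0.56 ± 0.083 under DRF.

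Plin1, the main droplet coat of adipocytes, moved in the same sense as Cidec but by less. At ZT12 it was at 1792, 1944, 2448 and 2031 CPM under NRF and at 1409, 1426, 1368 and 1172 CPM under DRF. At ZT24 it was at 1474, 1229, 1302 and 1269 CPM under NRF and at 1896, 2003, 2259 and 2102 CPM under DRF. The regimens did not overlap at either time, NRF being higher at ZT12 (log2 difference −0.61 ± 0.19, adjusted p = 0.0203) and DRF at ZT24 (0.65 ± 0.19, adjusted p = 0.0178). At ZT0, the same point of the light and feeding cycle as ZT24, the groups overlapped, at 1698, 1863, 1538 and 1601 CPM under NRF and 2000.2, 2069, 1869 and 1153 CPM under DRF (log2 difference 0.049 ± 0.19, adjusted p = 0.917), and without the 2 DRF libraries that stood apart the difference was 0.24 (adjusted p = 0.240). On the deposited values no same-time call of Plin1 passed (adjusted p of 0.114 at ZT8, 0.109 at ZT12 and 0.106 at ZT24). The highest mean was 1.56 times the lowest under NRF and 1.54 times under DRF. The fitted peaks were at ZT8.66 ± 0.914 and ZT0.475 ± 0.925 h.

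Plin4, which coats small droplets, had a larger amplitude than Plin1 on the log2 scale under NRF (0.58 ± 0.092 against 0.29 ± 0.07). Under NRF it stood at 1704, 2325, 2071 and 1651 CPM at ZT8 and at 732, 981, 1029.7 and 1013 CPM at ZT20, with no overlap. Under DRF it stood at 684, 1303, 902 and 699 CPM at ZT12 and at 1872, 1355, 2070.3 and 1612 CPM at ZT24, also with no overlap. These DRF groups were picked as the lowest and highest means. At ZT12 all 4 DRF mice were below the NRF mice, which stood at 2000.2, 1684, 2849.8 and 1572 CPM (log2 difference −1.19 ± 0.26, adjusted p = 0.00104). The fitted peaks were at ZT9.90 ± 0.640 and ZT23.2 ± 0.893 h. Plin4 was also the 1 member whose lower mean level under DRF passed the test (log2 difference −0.26 ± 0.10, adjusted p = 0.0452; 1 of 9 members against 10.3% of all genes). With total-read scaling Cidec passed as well (−0.24, adjusted p = 0.0281) and Plin4 was at −0.30, adjusted p = 0.0138. The Plin4 call was close to the threshold and was lost in 32 of the 56 fits that left out 1 library, and without the 2 DRF libraries that stood apart the difference was −0.19 (adjusted p = 0.0889).

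The shifts of the 4 genes were taken by the shorter way round the 24-h cycle, negative being earlier under DRF. They were −8.19 ± 1.3 h for Plin1, −9.91 ± 1.16 h for Plin2, −10.7 ± 1.10 h for Plin4 and 11 ± 0.961 h for Cidec (SE). For shifts this near to 12 h the sign does not tell earlier from later. The opposite signs of Plin4 and Cidec go with DRF peaks at ZT23.2 and ZT23.3. All 4 shifts passed (adjusted p from 3.48e-14 to 5.28e-07, CircaCompare model), and all 4 were of 8 h or more. Over all genes 2500 were rhythmic under both regimens. Of these, 2417 had a shift that passed (9.32% of all genes) and 2003 a shift of 8 h or more (7.72%). Most genes with a rhythm under both regimens thus shifted as these 4 did. Without the 2 DRF libraries that stood apart the Plin1 shift was −7.00 h and with total-read scaling −7.77 h, and neither reached 8 h. The limma test of the rhythm difference itself called these 4 genes and Fitm2, 5 of 9 members against 36% of all genes, with adjusted p of 5.81e-09 for Cidec, 3.61e-08 for Plin4, 4.39e-08 for Plin2, 0.000105 for Plin1 and 0.00724 for Fitm2. With total-read scaling Plin3 passed too (adjusted p = 0.00129). The Fitm2 call was the less firm: it was lost on the deposited values (adjusted p = 0.0868), without the ZT24 libraries (0.0525) and without replicate 2 of every group (0.101).

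**Figure D3:**
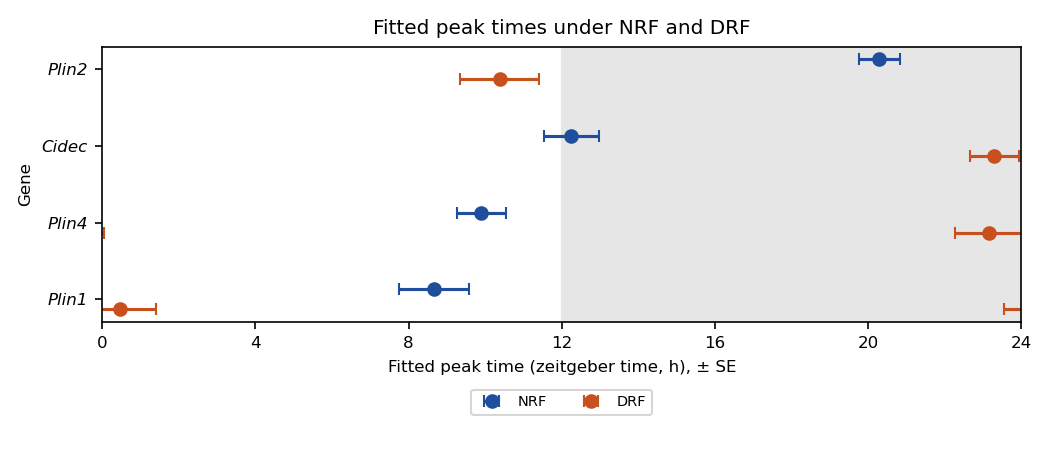
Fitted 24-h peak time of the 4 coat genes rhythmic under both regimens, with SE bars, NRF in blue and DRF in orange, dark phase shaded, the axis closing on itself at 0 and 24 h. The Plin2 peak is in the dark phase under NRF and in the light phase under DRF, and the peaks of Cidec, Plin4 and Plin1 lie from ZT8.66 to ZT12.2 under NRF and from ZT23.2 through lights-on to ZT0.475 under DRF.

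Fitm2 and Bscl2, which act at the endoplasmic reticulum where droplets form, shared a high level 4 h after feeding began in the light phase. At ZT4 under DRF Fitm2 stood at 246, 271, 291 and 295 CPM, against 209.6, 162, 226 and 172 CPM under NRF, with no overlap (log2 difference 0.53 ± 0.15, adjusted p = 0.00985). Bscl2 stood at 382, 407, 458 and 466 CPM under DRF and at 335, 317, 291 and 279.6 CPM under NRF, also with no overlap (0.49 ± 0.16, adjusted p = 0.0260). With total-read scaling the differences were smaller, 0.34, adjusted p = 0.0320 for Fitm2 and 0.29, adjusted p = 0.0653 for Bscl2, which no longer passed. Of the 9 members 3 were higher under DRF at ZT4, Plin2 being the other, against 10.4% of all genes. Fitm2 was rhythmic under NRF, with a peak at ZT13.8 ± 1.25 h and group means from 186 to 249 CPM, and did not pass under DRF (adjusted p = 1.00). Its NRF rhythm was lost without replicate 2 of every group (adjusted p = 0.0633). Bscl2 kept to means between 297 and 345 CPM under NRF and between 311 and 428 CPM under DRF. Its mean level over all times was 0.14 ± 0.067 higher under DRF on the log2 scale, which did not pass (adjusted p = 0.135), and without the 2 DRF libraries that stood apart it was 0.21 with an adjusted p of 0.000318. The lower of those libraries, DRF ZT8 replicate 1, held 157 CPM of Bscl2 and 105 CPM of Fitm2, the lowest value of each gene in any library.

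Plin5, the perilipin of oxidative tissues, was low in VAT and higher under DRF. Its mean level over all times was 0.35 ± 0.10 higher on the log2 scale, 1.28-fold (adjusted p = 0.00473 by limma), and the DRF mean was the higher at 6 of the 7 times. It was 1 of 9 members, against 11.4% of all genes. Without the 2 DRF libraries that stood apart the Plin5 difference was 0.41 (adjusted p = 0.000237), and Bscl2 and Plin3 passed as well (Plin3 0.10, adjusted p = 0.0156). Without replicate 2 of every group the Plin5 call was lost (0.29, adjusted p = 0.0887). The difference was largest at ZT16, where the DRF mice stood at 16.8, 14.9, 15.3 and 16.4 CPM and the NRF mice at 7.43, 7.30, 11.4 and 7.46 CPM. All 4 DRF mice were above all 4 NRF mice, of which 1 was well above the other 3 (log2 difference 0.87 ± 0.24, adjusted p = 0.0122). Plin5 is also abundant in brown fat: a list of 7 brown adipocyte markers summed to a median of 73.8 CPM under NRF (range 38.4 to 158) and 92.7 CPM under DRF (37.6 to 156), 1 of the 7 having a higher mean level under DRF, and their part in the Plin5 difference was not tested. By contrast, 5 adipose progenitor markers summed to a median of 2110.0 CPM under NRF (range 1424 to 2977) and 1583 CPM under DRF (1272 to 2116), with 3 of the 5 lower under DRF. Of 6 mesothelium markers 3 were lower, with median sums of 481 CPM (247 to 671) and 370.1 CPM (206 to 614), and the part of either list in the mean levels of the coat genes was not tested.

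Plin3, the perilipin that waits in the cytosol, had the narrowest spread over libraries relative to its mean. Its group means ran from 52.6 to 64.5 CPM under NRF and from 56.3 to 68.0 CPM under DRF, and it did not pass the rhythm test under either. With total-read scaling it passed under NRF (adjusted p = 0.0104). It too was higher under DRF at ZT16, at 67.6, 69.3, 57.1 and 66.0 CPM against 51.4, 58.1, 56.4 and 44.5 CPM under NRF. The groups overlapped in 1 DRF and 1 NRF mouse (log2 difference 0.30 ± 0.09, adjusted p = 0.0229). Plin3 and Plin5 were the 2 members called at ZT16, against 5.02% of all genes.

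Fitm1, the muscle member of the pair, was near the limit of detection. It had from 0 to 60 reads per library with a median of 6, and 3 NRF libraries held none, which allows up to 0.0771, 0.0820 and 0.0809 CPM in them (3 reads, counting error only). Group means ranged from 0.0640 to 0.469 CPM, and no rhythm, mean level or contrast test called Fitm1 in the fits as described. Limma voom, on its own log2 scale, called its ZT20 difference (2.76, adjusted p = 0.0481), against 0.38 (adjusted p = 0.172) in the fit used here. Its ZT20 minus ZT8 difference between regimens (0.61, adjusted p = 0.0753) passed when NRF ZT8 replicate 1 (0.74, adjusted p = 0.0313), NRF ZT8 replicate 2 (0.73, adjusted p = 0.0371) or DRF ZT20 replicate 4 (0.70, adjusted p = 0.0492) was left out. The highest library, NRF ZT8 replicate 4 at 1.49 CPM, was also the library with the highest summed level of 8 skeletal muscle markers, 643 CPM. The next 3 libraries by Fitm1, DRF ZT24 replicate 1, NRF ZT24 replicate 4 and DRF ZT16 replicate 2, held 1.07, 0.896 and 0.763 CPM. They were ranked 4, 3 and 2 by the muscle sum, at 383, 439 and 480.0 CPM, against medians of 41.2 CPM under NRF and 62.3 CPM under DRF. The 3 genes nearest to the Fitm1 profile over the 14 group means were Eef1a2, Ttn and Ckm (Pearson r = 0.875, 0.869 and 0.867). The part of muscle RNA in the Fitm1 level was not tested.

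**Figure D4:**
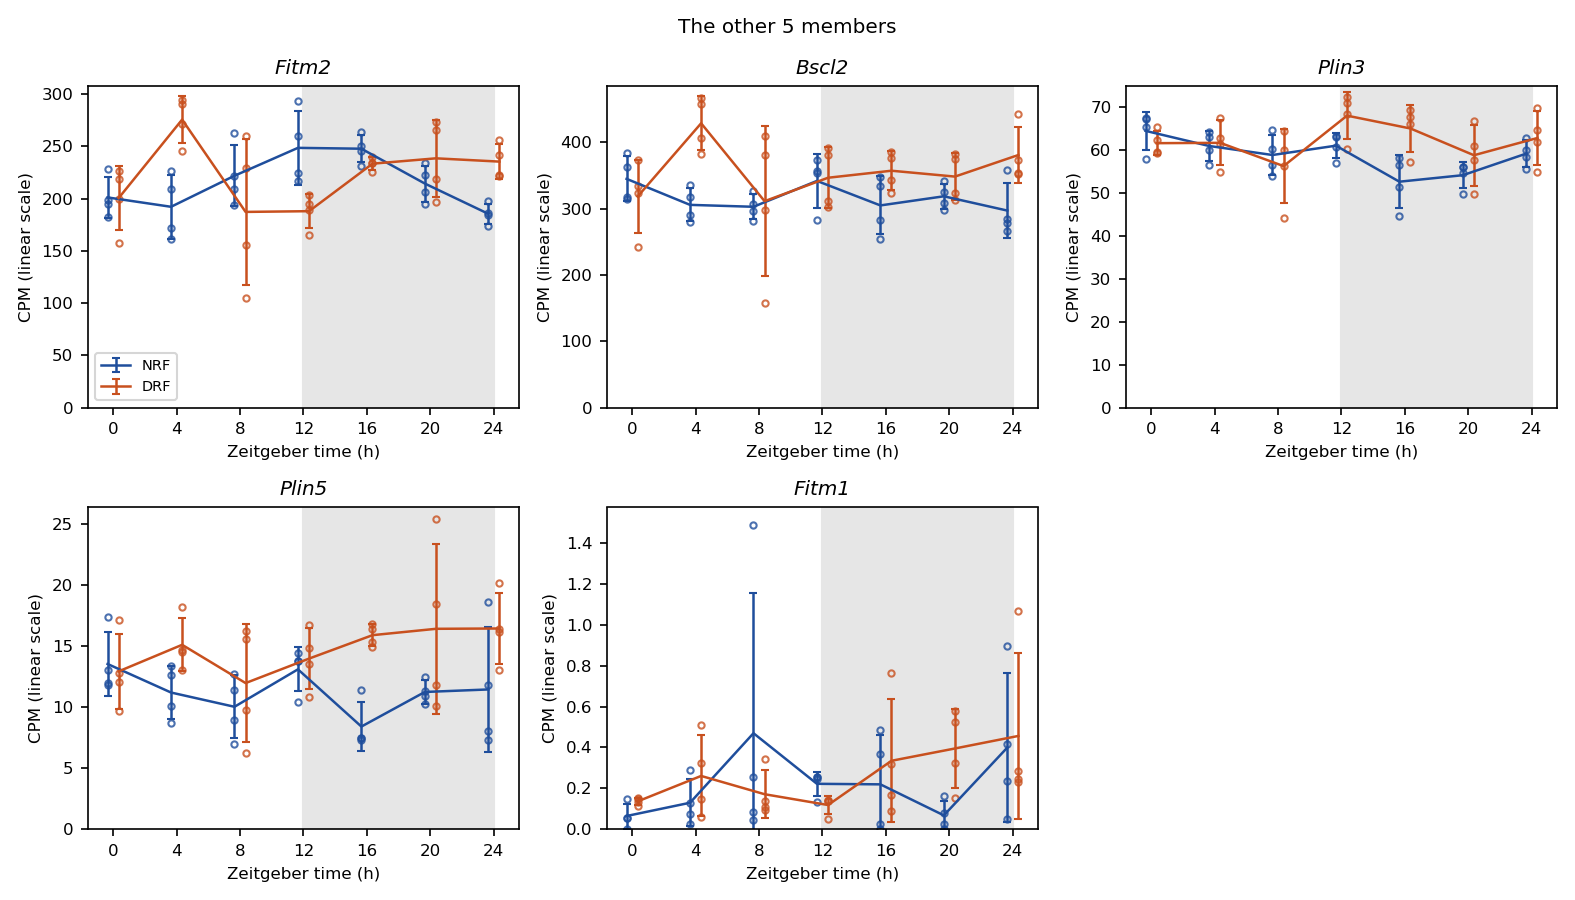
Level in CPM (linear axis, a separate scale for each gene) of Fitm2, Bscl2, Plin3, Plin5 and Fitm1 against zeitgeber time, 1 circle per mouse, lines through the group means with SD bars (n = 4), NRF in blue, DRF in orange, dark phase shaded. Fitm2 and Bscl2 are highest at ZT4 under DRF, Plin5 lies higher under DRF at 6 of 7 times, and Fitm1 is set by a few high libraries.

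The regimens were then set side by side at the same clock time and at the same time of the feeding cycle. At the same ZT, 18 of 63 tests (9 members at 7 times, limma) passed, 28.6%, against 13.9% over all genes, and the median absolute log2 difference was 0.35 for the members and 0.11 for all genes. The medians over all genes, here and 12 h apart, include low genes, whose differences the log2(CPM + 1) scale keeps small. The count was 3 to 12 with 1 replicate number left out of every group, 13 on the deposited values, 22 without the 2 DRF libraries that stood apart (4 of the 18 lost and 8 others gained) and 20 with total-read scaling. The 4 gained with total-read scaling were Plin2 at ZT24 (−1.04, adjusted p = 0.0170, against 0.0573 before), Cidec at ZT16 (−0.72, adjusted p = 0.0314, against 0.0833) and Fitm2 at ZT8 (−0.36, adjusted p = 0.0269, against 0.154) and ZT12 (−0.38, adjusted p = 0.0178, against 0.0676), and the 2 lost were Bscl2 at ZT4 and Plin4 at ZT24. On the scale used here the Fitm2 difference at ZT8 was −0.32. Without the 2 DRF libraries that stood apart it was −0.069 (adjusted p = 0.777). Cidec, Plin1 and Plin4 were all lower under DRF at ZT8 (3 of 9 members, 7.47% of all genes) and at ZT12 (3 of 9, 7.37%), and all higher at ZT24 (3 of 9, 6.1%). At ZT0, the same clock and feeding time as ZT24, none of the 3 passed: the differences were 0.049 for Plin1 (adjusted p = 0.917), 0.50 ± 0.25 for Cidec (0.216) and 0.56 ± 0.26 for Plin4 (0.181). The adipocyte marker sum went the same way, at 37412 to 41613 CPM under DRF and 43960 to 51484 under NRF at ZT12. At ZT24 it was 48542 to 63162 CPM under DRF and 35489 to 43413 under NRF, while at ZT0 and ZT8 the regimens overlapped. Of the 9 adipocyte markers 4 differed in rhythm, against 36% of all genes. The part of adipocyte content in these differences was not tested. Plin2 was higher under DRF at ZT4, ZT8 (8.99% of all genes) and ZT12 (8.76%) and lower at ZT0 (5.06%) and ZT20 (6.4%). Without the 2 DRF libraries that stood apart the Plin2 call at ZT0 was lost (−0.85, adjusted p = 0.121), also without DRF ZT0 replicate 4 alone (adjusted p = 0.147), and Plin4 (0.74, adjusted p = 0.0374) and Cidec (0.68, adjusted p = 0.0453) passed there as higher under DRF. With the NRF time taken 12 h from the DRF time, so that both groups had the same time since food came or went, 3 of 54 tests passed, 5.56% against 6.44% over all genes, and the median absolute difference was 0.21 for the members and 0.092 for all genes. Neither Cidec, Plin1 nor Plin4 was among the 3, though with total-read scaling Plin1 passed at DRF ZT16 against NRF ZT4 (−0.47, adjusted p = 0.0342), and for Cidec the 6 differences ran from −0.37 ± 0.25 to −0.015 ± 0.25. The 3 that passed were Plin5 and Bscl2 at DRF ZT4 against NRF ZT16 and Plin2 at DRF ZT16 against NRF ZT4. Without the 2 DRF libraries that stood apart 6 passed, with Plin1 (0.40, adjusted p = 0.0145) and Plin3 (0.23, adjusted p = 0.0477) higher at DRF ZT4 than at NRF ZT16 and Plin1 lower at DRF ZT16 than at NRF ZT4 (−0.37, adjusted p = 0.0274).

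In the first of these, 4 h into the meal, Plin5 was at the 15.1 CPM mean of DRF ZT4 against 8.39 CPM at NRF ZT16 (log2 difference 0.79 ± 0.24, adjusted p = 0.0206) and Bscl2 at 428 against 305 CPM (0.50 ± 0.16, adjusted p = 0.0325). Neither gene overlapped between these groups, and 2 of 9 members were higher against 7.09% of all genes. Plin2 4 h after food was withdrawn stood at 746, 594, 889 and 982 CPM under DRF (ZT16) and at 422, 762, 235 and 289 CPM under NRF (ZT4). The groups overlapped through 1 NRF mouse, which was above 2 of the DRF mice (log2 difference 1.04 ± 0.34, adjusted p = 0.0411; 1 of 9 members against 4.75% of all genes). The DRF mean of Plin2 was 826 CPM at the end of feeding, 803 CPM 4 h later and 475 CPM at ZT20, steps that were not tested.

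**Figure D5:**
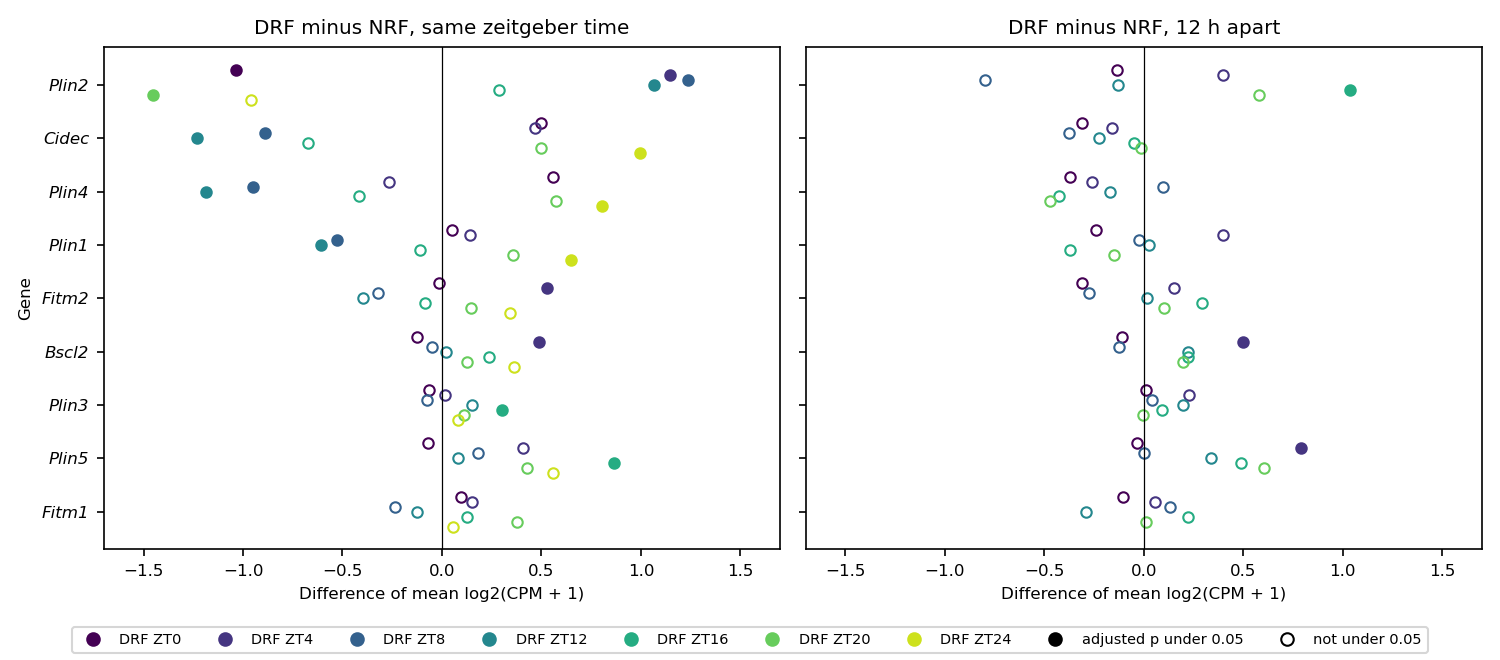
Difference in mean log2(CPM + 1), DRF minus NRF, for each coat gene at the same zeitgeber time (left, 7 points) and with the NRF time 12 h away (right, 6 points). Colour gives the DRF time and filled points have an adjusted p under 0.05, and the points of Cidec, Plin4 and Plin1 span a narrower range on the right than on the left.

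Many of these calls lay near the threshold, with 4 mice a group. Of the 18 same-time calls, 5 were kept whichever single library was left out (Plin2 at ZT20, Cidec and Plin4 at ZT12, Plin5 at ZT16 and Fitm2 at ZT4), and none of the 3 calls 12 h apart was. With a replicate number left out of every group, Plin5 at ZT16 was lost without number 1 (0.79, adjusted p = 0.0523), 2 (0.84, adjusted p = 0.102) or 4 (0.81, adjusted p = 0.0575) and Fitm2 at ZT4 without number 2 (0.46, adjusted p = 0.120) or 4 (0.44, adjusted p = 0.113). Without DRF ZT8 replicate 1 the ZT8 differences were −0.18 for Plin1 (−0.53 with it), −0.58 for Cidec (−0.89) and −0.60 for Plin4 (−0.95), with adjusted p of 0.472, 0.0893 and 0.0936, so that none of the 3 passed, while their ZT12 and ZT24 differences do not contain that library. The ZT12 call of Plin1 was lost without NRF ZT12 replicate 3 (−0.52, adjusted p = 0.0779) and its ZT24 call without DRF ZT24 replicate 3 (0.60, adjusted p = 0.0572). The ZT24 call of Plin4 was also weakest without DRF ZT24 replicate 3 (0.71, adjusted p = 0.117) and that of Cidec without NRF ZT24 replicate 4, as given above. With total-read scaling Plin4 did not pass at ZT24 (0.72, adjusted p = 0.0532). For Plin2 the ZT0 call was weakest without NRF ZT0 replicate 3 (−0.70, adjusted p = 0.230), the ZT4 call without NRF ZT4 replicate 3 (0.91, adjusted p = 0.0808), the ZT8 call without DRF ZT8 replicate 4 (1.02, adjusted p = 0.0511) and the ZT12 call without DRF ZT12 replicate 1 (0.87, adjusted p = 0.119). The ZT16 call of Plin3 was weakest without NRF ZT16 replicate 4 (0.23, adjusted p = 0.135) and the ZT4 call of Bscl2 without DRF ZT4 replicate 4 (0.44, adjusted p = 0.0824). Of the calls 12 h apart, Plin5 was weakest without DRF ZT4 replicate 4 (0.70, adjusted p = 0.0859), Bscl2 without NRF ZT16 replicate 1 (0.41, adjusted p = 0.146) and Plin2 without NRF ZT4 replicate 3 (0.80, adjusted p = 0.199).

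The middle of the dark phase was also set against the middle of the light phase within each regimen. Under NRF, ZT20 minus ZT8 is fed minus fasted, and Plin2 was higher (2.03 ± 0.34 log2, adjusted p = 1.19e-05; 1 of 9 members, 11.8% of all genes). Plin4 (−1.04 ± 0.26, adjusted p = 0.00256) and Plin1 (−0.50 ± 0.19, adjusted p = 0.0486) were lower (2 of 9, 10%), and Cidec, at −0.51 ± 0.25, did not pass although its groups did not overlap (adjusted p = 0.155). With total-read scaling Cidec (−0.63, adjusted p = 0.0348) and Plin3 (−0.24, adjusted p = 0.0145) passed as lower. Under DRF the same contrast is fasted minus fed, and Cidec was higher (0.87 ± 0.25, adjusted p = 0.0170; 1 of 9, 5.8%). Plin2, at −0.65 ± 0.34, did not pass there (adjusted p = 0.228), and its groups overlapped. The NRF call of Plin1 was lost in 48 of the 56 fits that left out 1 library, with a difference of −0.45, adjusted p = 0.112 without NRF ZT8 replicate 3. Without DRF ZT8 replicate 1 the Cidec difference under DRF was 0.57 (adjusted p = 0.152). The contrast itself differed between regimens for Plin2 (−2.69 ± 0.48, adjusted p = 2.62e-05), Plin4 (1.52 ± 0.37, 0.00176), Cidec (1.39 ± 0.36, 0.00297) and Plin1 (0.88 ± 0.27, 0.0122), 4 of 9 members against 21.6% of all genes. With total-read scaling Fitm2 passed as well (0.49, adjusted p = 0.0284, against 0.125 before). On the scale used here the Fitm2 value was 0.46, and 0.21 (adjusted p = 0.425) without the 2 DRF libraries that stood apart. Without DRF ZT8 replicate 1 the Plin1 value was 0.54 (adjusted p = 0.0497), that of Plin4 1.17 (0.00879) and that of Cidec 1.08 (0.0123).

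The profiles of the members over the 14 group means were compared with each other and with all genes, as a description over points that share time, regimen and scaling. Plin4 was correlated with Cidec (Pearson r = 0.86) and Plin1 (0.82) and inversely with Plin2 (−0.87), and Cidec with Fitm2 (0.79). Plin5 and Bscl2 went together (0.80), as did Plin5 and Plin3 (0.70). The genes with the most similar profiles, among those with a mean log2(CPM + 1) of at least 1, were Zfp91, Hvcn1 and Ptges for Plin2 (r = 0.979, 0.978 and 0.973). They were Tmem43, Nupr1l and Polr3gl for Plin4 (r = 0.981, 0.980 and 0.970), Cyp2e1, Dhrs7b and Ppm1b for Cidec (0.966, 0.956 and 0.952) and Tkfc, Spg21 and Abcd2 for Plin1 (0.959, 0.946 and 0.944). For the less rhythmic members they were Nelfcd, Gm9575 and Coq3 for Plin5 (0.984, 0.961 and 0.947), Pccb and D10Jhu81e for Bscl2 (0.952 and 0.947), Eif4ebp2, Pxmp4 and Tinagl1 for Fitm2 (0.932, 0.897 and 0.890) and Atat1, Gm12989 and Strada for Plin3 (0.892, 0.837 and 0.818).

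The mice of 1 group also differed among themselves, and their deviations from the group mean were compared between Plin2 and each of the other 8 members over the 56 libraries, a comparison chosen after the values were seen. The deviations are on the effective-size scale, which scales all genes of a library together. The relations were not computed with total-read scaling. Mice with more Plin2 than their group had more Bscl2 (Pearson r = 0.503, Spearman rho = 0.571, permutation p within groups 0.000470 and 0.000190, adjusted over 8 relations 0.00224 and 0.00152). They also had more Plin5 (r = 0.559, rho = 0.561, permutation p 0.000560 and 0.000770, adjusted 0.00224 and 0.00308). Without the 2 libraries farthest from the Plin2 median the values were r = 0.579 and 0.617, and without the 2 DRF libraries that stood apart 0.451 and 0.513. Within regimens r was 0.244 under NRF and 0.763 under DRF for Bscl2, and 0.399 and 0.763 for Plin5 (28 libraries each). Both relations were thus weaker within NRF, and that of Bscl2 was weak there. NRF ZT24 replicate 4, the library with liver markers, deviated by 0.77 for Plin2, 0.74 for Plin5 and −0.57 for Cidec. No r was computed without this library, so its part in the NRF values was not tested. Plin3 passed by rho (rho = 0.358, permutation p 0.0179, adjusted 0.0476) and not by r (0.258, permutation p 0.0960, adjusted 0.154). For Cidec the pooled r of −0.143 (permutation p 0.454, adjusted 0.519; rho = −0.179, permutation p 0.281, adjusted 0.322) joined −0.612 within NRF and 0.433 within DRF, the latter 0.162 without the 2 DRF libraries that stood apart. Plin1, Plin4, Fitm1 and Fitm2 did not pass by either measure. Within DRF r with Plin2 was 0.517 for Plin1 and 0.453 for Plin3, and 0.046 for Plin4 and −0.250 for Fitm1. For Fitm2 the pooled r of 0.318 (permutation p 0.0809, adjusted 0.154) joined −0.195 within NRF and 0.753 within DRF, the latter 0.690 without those 2 libraries. Without the 2 DRF libraries that stood apart the pooled r with Cidec was −0.345, and that with Plin4 was −0.400 in place of −0.195 (permutation p for the latter 0.304, adjusted 0.405), with −0.443 within NRF and −0.372 within the remaining DRF libraries.

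Other genes of the droplet were read from the same fits. Of a list of 32 genes for droplet lipases and their cofactors, triglyceride synthesis and other droplet proteins, 21 were rhythmic under NRF (26.1% of all genes), 15 under DRF (15.3%), and 25 differed in rhythm between regimens (36%). Their median fitted amplitude was 0.31 under NRF and 0.27 under DRF. Of the list 4 had a higher (11.4% of all genes) and 5 a lower mean level under DRF (10.3%), and 1 of the 32, Pnpla3, differed in amplitude (1.44%). The 6 with the smallest p for the rhythm difference were Gpat4 and Gpat3, which make lysophosphatidic acid, the acyl-CoA synthetases Acsl1 and Acsl3, Dgat1, which makes triglyceride, and Lipe, the hormone-sensitive lipase. All but Acsl3 peaked between ZT8.36 ± 0.674 (Gpat3) and ZT11.4 ± 0.343 h (Gpat4) under NRF. Acsl3, which sits on growing droplets, peaked at ZT19.8 ± 0.405 h under NRF and ZT8.78 ± 0.401 h under DRF, close to Plin2. Over the whole list 12 of the 32 were rhythmic under both regimens and shifted (9.32% of all genes), 11 of them by 8 h or more (7.72%). Among all 2500 genes rhythmic under both regimens, 2003 shifted by 8 h or more. The 6 were picked by their rhythm difference, so their shifts are a description: the absolute shifts ran from 8.25 h (Gpat3) to 11.6 h (Lipe).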

How the data were processed

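Polyadenylated RNA of whole VAT from 56 mice was sequenced by the authors. Per the submitters' processing notes reads were aligned with HISAT2 2.0.5 to mm10 and counted with featureCounts 1.5.0-p3. The deposited values are called TPM, but their steps show that the authors' table holds log2(CPM + 1) divided by exon length and rescaled per library, which was treated as a score with no fixed range. It was converted back to whole reads: 99.99% of 1288990 values tested were whole within 0.02 reads or, for large values, within 1e-06 of the value. This gave 31.1 to 41.2 M reads per library (median 35.5 M). CPM in the deposited values is relative to an effective library size that the steps also give (31.8 to 47.3 M), 0.934 to 1.36 times the recovered reads, and CPM is used here on that scale. The intervals and upper limits cover counting error only. No column was left without a sample, and no 2 libraries of a group held the same counts within sampling noise.

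Tests across genes used log2(CPM + 1), with Benjamini-Hochberg adjustment over 25939 genes and a threshold of 0.05. Correlations of deviations were adjusted over 8 relations, and Dixon's tests were not adjusted. For rhythms, p-values of JTK_CYCLE and of a Lomb-Scargle periodogram were joined by Fisher's method. Phase and amplitude were tested in the CircaCompare cosine model at a 24-h period (Wald tests), and rhythm differences, mean levels and contrasts by limma 3.58.1 with an intensity trend in R 4.3.3. Python 3.11.15 with scipy 1.17.1 was used otherwise. The scripts were tested on simulated data. Standard errors come from these fits, and deviations from group means were permuted within groups 100000 times. No count model was used in the main fits, because the recovered reads are a reconstruction. Limma voom, 1 of the alternatives below, was run on these reads.

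All 9 members are named. Beside each stand the 3 genes most correlated over 14 group means (mean log2(CPM + 1) of at least 1; 1 of them is not reported here), and from a list of 32 other droplet genes the 6 with the smallest p for the rhythm difference. The members and lists were chosen with earlier results of these data known. Each library is a different mouse, and the replicate numbers were not treated as pairs across groups in the main fits. Alternatives were the deposited values, a pseudocount of 0.1, a filter on low genes (mean of at least 0.5), median-of-ratios scaling, limma voom, a replicate block, leaving out each replicate number, the ZT24 libraries or the 2 DRF libraries that stood apart and, chosen after seeing the data, CPM per M recovered reads (total-read scaling) and leaving out each of the 56 libraries alone. The RefSeq protein sequences were not used here.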

Additional observations from a re-analysis of the deposited data

Results flagged for a closer look

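Within groups of 4 mice, 8 of 126 gene and group sets held a mouse far from the other 3 by Dixon's test, and chance marks about 1 in 20 sets. Plin2 in NRF ZT8 replicate 3 was 426.8 CPM against 263.9 to 280.3 in the others, and Plin4 in NRF ZT20 replicate 1 was 731.5 CPM against 980.7 or more. Plin5 was 10.41 CPM in NRF ZT12 replicate 2, below the other 3 mice, and 11.36 CPM in NRF ZT16 replicate 3, above them. Cidec was low in DRF ZT20 replicate 1, at 2619 CPM against 3409 to 3565 in the others. Fitm1 was low in NRF ZT12 replicate 3 (0.1343 CPM) and in DRF ZT12 replicate 3 (0.05122 CPM) and high in DRF ZT24 replicate 1 (1.067 CPM), all from few reads.

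The 24-h rhythm differed between regimens, by the limma interaction test adjusted over all genes, for Plin1 (adjusted p = 0.000105), Plin2 (4.39e-08), Plin4 (3.61e-08), Cidec (5.81e-09) and Fitm2 (0.00724). The ZT20 minus ZT8 difference also differed between regimens in the same fit, by 0.8801 for Plin1, −2.688 for Plin2, 1.52 for Plin4 and 1.387 for Cidec on the log2 scale, DRF minus NRF.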

How the results depend on the processing

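Over 13 alternatives 2049 of 2188 member results kept their side of the threshold, 97 dropped below it and 42 passed it. Of 1828 log2 differences compared, 89 changed sign, 15 of them without the 2 DRF libraries that stood apart, and 0 of the 89 were past the threshold in either fit. The absolute phase shifts ran from 6.74 to 11.6 h. With total-read scaling, chosen after seeing the data, the ZT20 minus ZT8 contrast under NRF called 5 members, Plin3 and Cidec being added, and 6 members each were rhythmic under NRF and differed in rhythm, Plin3 being added. On the deposited values 1 member was rhythmic under DRF (Cidec) and shifted in phase, 1 differed in mean level (Plin5) and 1 of the tests 12 h apart passed, and 4 differed in rhythm, Fitm2 being lost. Of the 18 same-ZT calls 13 passed there, Plin1 at ZT8, ZT12 and ZT24, Plin3 at ZT16 (adjusted p = 0.0811 by limma) and Plin4 at ZT24 (0.0996) being lost, and so was Plin1 in ZT20 minus ZT8 under NRF (0.211). The ZT20 minus ZT8 contrast under DRF called 2 members, Cidec and Fitm2, with the filter on low genes and with median-of-ratios scaling, and 0 without the 2 DRF libraries that stood apart, where 6 tests 12 h apart passed. Without the ZT24 libraries 1 member was rhythmic under DRF, 1 shifted in phase, 1 differed in mean level and 4 differed in rhythm, Fitm2 being lost. This setting was not run for the contrasts, which do not pool over time.

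With a replicate number or a single library left out, the members called ranged from 4 to 5 (rhythm under NRF), 1 to 4 (rhythm under DRF), 1 to 4 (phase shift), 0 to 0 (amplitude), 4 to 6 (rhythm difference), 1 to 3 (mean level), 3 to 20 (tests at the same ZT), 0 to 5 (12 h apart), and 2 to 3, 0 to 3 and 2 to 5 for ZT20 minus ZT8 under NRF, under DRF and between them. The causes of these changes were not tested.

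The median correlation of deviations was 0.0392 between same-numbered libraries and −0.0129 between libraries with different numbers. This difference was not tested, and 18 of 56 libraries were closest to their own number. Under DRF, replicate 1 had the lowest mesothelium marker sum of its group at every time. Its macrophage marker sum was the lowest of its group at every time but ZT16. With the replicate number as a block, 19 tests passed at the same ZT, Plin2 at ZT24 (adjusted p = 0.0484 by limma) being gained. Otherwise the counts were those without the block, 3 at 12 h apart, 5 for the rhythm difference, 4 for the phase shift and 2 for the mean level. The rhythm test itself takes no block.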
